A study of Mus musculus with 4 samples.

Results

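The regions described are the last exons of mouse genes whose symbol starts with Zfp, the largest naming group of zinc finger genes. They were chosen by annotation alone: the 3′-most exon of each transcript, merged per protein-coding gene, outside every promoter window (1000 bp upstream to 500 bp downstream of any transcription start), with at least 2 CpG sites read at least 20 times in all 4 tumors. Of 397 protein-coding Zfp genes, 110 met the rule, and they are among 4062 last exons of protein-coding genes that met the same coverage rule. Methylation of a gene's last exon is the percent of reads with an unconverted C, averaged over its sites, and differences between percentages are in percentage points.

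Reduced representation bisulfite sequencing (RRBS) reads CpG-rich fragments that start and end at CCGG. It was run on genomic DNA of 4 tumors grown from mouse lung adenocarcinoma cells, to compare methylation between a parental line and a line with acquired resistance to anti-PD1. The parental group was 344SQP with 2 tumors, and the resistant group was 344SQR with 2 tumors. All 4 tumors grew under the skin of the leg in syngeneic female 129Sv/Ev hosts aged 12 to 16 weeks. Both groups received anti-PD1 at 10 mg/kg from day 4 after injection for 4 doses, and tissue was taken 24 h after the last dose. There is no tumor without anti-PD1, so the comparison is between treated tumors of the lines. The replicates of a line came from different mice. The tumors were bulk tissue, so a changed cell mix and changed methylation per cell cannot be told apart.

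CpG calls numbered 116794455 and 138331886 in 344SQP replicates 1 and 2, and 160548303 and 174689402 in 344SQR replicates 1 and 2. A call is 1 read at 1 CpG site, so a read over several sites is counted at each of them. The members hold 2308 qualified sites at 1955 CpGs, because 353 CpGs were read on both strands. On average a member site was read 104 and 123 times in the 344SQP tumors and 136 and 150 times in the 344SQR tumors. Single sites had 20 to 371 reads, and at 20 reads 1 read is worth 5 points. Values per tumor are given throughout in the order 344SQP replicate 1, 344SQP replicate 2, 344SQR replicate 1, 344SQR replicate 2.

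Most Zfp genes encode proteins with arrays of C2H2 zinc fingers, and in many of them a single long last exon encodes the whole array. Many also carry a KRAB box, which recruits the corepressor TRIM28 and the histone methyltransferase SETDB1 to silence retroelements and other targets. The genes often lie in clusters of related copies, and gene bodies in mammals are as a rule methylated where CpG island promoters are not.

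Most Zfp genes had no value, for want of qualified sites. Of the 397 genes, 274 had no qualified site in the last exon, 9 had such sites only inside a promoter window, and 4 had a single site outside promoters. Just outside the rule, those 4 genes (Zfp704, Zfp157, Zfp566 and Zfp955b) had medians of 99.5%, 97.3%, 98.3% and 95.6% in the 4 tumors. Just inside it, the 5 members with exactly 2 sites (Zfp663, Zfp384, Zfp146, Zfp263 and Zfp799) had medians of 96.6%, 99.2%, 99.7% and 99.2%. The median member had 10 sites and Zfp316 had the most, with 271. Chromosome 7 holds 36 members of its 92 Zfp genes, and 1 member is not on an autosome. No site belonged to 2 members, but 7 members share sites with an exon of another gene, among them Zfp335, whose 9 sites all lie in an exon of Pcif1.

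Measured and unmeasured Zfp genes differed in sequence. The last exons of members had a median of 2595 bases and 64 CpGs, or 2.37 CpGs per 100 bases, and a median of 6.5 CCGG sites. The last exons of the other 287 Zfp genes were of like length, with a median of 2692 bases, but had 26 CpGs, 0.909 CpGs per 100 bases and 1 CCGG site, and 92 of them (32.1%) had no CCGG at all. GC content was 50.7% in members and 39.7% in the others. By a sequence pattern, which misses degenerate copies, a KRAB box was found in 28 members (25.5%) and in 152 other Zfp genes (53.0%). The values below thus describe the CpG-richer side of the family, where a KRAB box was found less often.

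Within members, CCGG was denser in the linkers, the short conserved stretches that join neighbouring fingers, than in the rest of the coding sequence. In members, 131 of 662 linkers (19.8%) contained CCGG, against 87 of 2272 (3.83%) in the other Zfp genes, a gap that the rule itself favors, since qualified sites arise near CCGG and all 110 members have at least 2 CCGG in the last exon. Linkers made up 10.5% of the coding bases of the members' last exons, but held 14.8% of the CpGs and 20.8% of the CCGG sites. That is 9.49 CCGG per 1000 bases, against 3.43 in fingers and 4.83 in the remaining coding bases. At the residue that opens the linker, 144 qualified sites at 111 CpGs in 48 genes were read, 109 of them in CCGG, with a median methylation of 97.5%. The assay therefore reads the same position of the finger repeat in many members.

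Most Zfp last exons were densely methylated in every tumor. The mean over the 110 members was 87.1%, 88.6%, 86.3% and 85.4%. The median member stood at 94.5% over the 4 tumors, with quartiles of 88.1% and 96.9%, and 78 members (70.9%) were at 90% or more. Zfp69, a KRAB gene, had 99.5%, 99.8%, 99.6% and 98.2% at 6 sites. Zfp619, which shares the highest finger count among the members (33) with Zfp462, had 97.8%, 98.1%, 97.6% and 99.3% at 12 sites. Zfp7, with a KRAB box and 16 fingers, had 98.5%, 98.6%, 97.8% and 97.6% at 23 sites. In Zfp69, Zfp619 and Zfp7 no site averaged under 95.7%, while Zfp462 had 92.9%, 95.1%, 86.3% and 87.9%.

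A few members stood apart with little methylation. Only 6 members were under 50% over the 4 tumors (Zfp853, Zfp580, Zfp771, Zfp703, Zfp503 and Zfp36l2), and 4 of these were under 10%. Zfp36l2 encodes a CCCH protein that binds AU-rich elements and speeds mRNA decay, and its last exon (chr17:84183931-84187156) had 0.852%, 0.844%, 0.661% and 0.652% at 74 sites. Zfp503 and Zfp703, related transcriptional corepressors without a C2H2 array by the pattern used, had 6.60%, 3.14%, 4.66% and 2.57% at 92 sites and 6.56%, 3.84%, 5.94% and 2.93% at 79 sites. In both genes methylation was higher toward the 3′ end. With the sites of an exon split in order into 3 parts of nearly equal number, the 3′ part had 15.3%, 6.03%, 10.8% and 5.28% in Zfp503 and 17.0%, 9.13%, 15.7% and 6.51% in Zfp703, while the middle part averaged 1.66% and 1.22% over the tumors. Zfp771 was the lowest of the genes with a finger array: with 8 fingers and 13.6 CpGs per 100 bases, it had 1.16%, 1.53%, 0.944% and 1.14% at 140 sites. The sites of Zfp703 and Zfp36l2 began 503 and 580 bases from the nearest transcription start, close to the edge of the promoter window, while those of Zfp503 and Zfp771 began 3146 and 5982 bases away. Zfp853 was intermediate, with 28.4%, 44.2%, 33.0% and 52.0% at 52 sites.

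Coding stretches of Zfp771 and Zfpm1 are shown side by side because both are CpG-rich and their methylation is at opposite ends. Both were read from GRCm38 (mm10), 5′ to 3′ on the strand of the gene, with qualified CpGs in capitals. Zfpm1 encodes FOG1, the cofactor of GATA1 in blood cell development. Its stretch lies at chr8:122336255-122336464 on the plus strand, where 31 of 35 CpGs qualified and 49 sites had 93.0%, 94.0%, 96.5% and 93.6%. The Zfp771 stretch lies at chr7:127254294-127254503 on the plus strand, inside fingers and linkers, where all 36 CpGs qualified and 52 sites had 0.828%, 0.739%, 0.973% and 0.848%.
Zfpm1: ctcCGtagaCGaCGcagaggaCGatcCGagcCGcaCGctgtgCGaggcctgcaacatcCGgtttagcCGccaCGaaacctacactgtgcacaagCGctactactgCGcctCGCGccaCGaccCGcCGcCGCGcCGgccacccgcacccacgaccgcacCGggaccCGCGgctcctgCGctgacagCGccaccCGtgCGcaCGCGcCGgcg
Zfp771: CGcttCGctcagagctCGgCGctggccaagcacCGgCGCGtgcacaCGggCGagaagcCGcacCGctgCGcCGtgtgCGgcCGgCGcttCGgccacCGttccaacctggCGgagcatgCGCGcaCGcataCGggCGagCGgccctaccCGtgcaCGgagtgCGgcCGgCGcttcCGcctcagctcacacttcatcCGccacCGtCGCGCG

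Between these ends lay 12 members at 50% to 80%: Zfp648, Zfp697, Zfp316, Zfp773, Zfp446, Zfp428, Zfp27, Zfp536, Zfp653, Zfp488, Zfp385a and Zfp57. Zfp27, with 21 fingers, had 74.2%, 70.7%, 74.98% and 73.4% at 4 sites, close together in all tumors. Some of these exons mix sites of high and low methylation. In Zfp385a, a p53 target that encodes a 3-finger protein, site means ran from 24.3% to 97.3% over 30 sites. In Zfp488 they ran from 26.7% to 85.9% over 7 sites. By contrast, the 78 sites of Zfp467 ran from 70.8% to 99.5%, and the 41 sites of Zfp334 from 93.6% to 99.8%.

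By protein type, the members with a KRAB box by the pattern used were the most methylated. The 28 members with a KRAB box averaged 93.1%, 95.5%, 92.5% and 91.9%, and the lowest of them was Zfp316 at 69.3% over the 4 tumors. The 71 members with at least 3 fingers and no KRAB box found averaged 88.1%, 89.6%, 87.5% and 86.9%. Since the pattern misses degenerate boxes, this group may hold KRAB genes too. The 8 members in which no C2H2 finger was found averaged 59.8%, 59.5%, 57.2% and 55.4%, but these means describe none of them. Zfp36l2, Zfp503 and Zfp703 were under 10% and the other 5 lay from 86.0% to 94.7%, with a median of 87.4% over the 8. The CCCH genes were Zfp36l2 and Zfp36l3. The 59 members within 250 kb of another Zfp gene averaged 89.0%, 89.8%, 88.8% and 88.0%, and the other 51 averaged 85.0%, 87.2%, 83.4% and 82.2%. These groups were compared by description only, with no test.

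Methylation was lower where CpGs were densest. Over the 4 tumors the 33 members under 2 CpGs per 100 bases averaged 91.9%, the 56 members from 2 to 4 averaged 91.4%, the 14 from 4 to 6 averaged 84.4% and the 7 at 6 or more averaged 31.7%. The last bin holds 7 genes, 5 of them under 50%. Across the 110 members, which share libraries and were not independent, Pearson's r between methylation and CpG density was −0.596 and Spearman's rho was −0.217. With the number of fingers r was 0.311 and rho 0.322. In other genes the bins below 4 averaged 80.1% and 74.7%, and the bin from 4 to 6 averaged 48.8% in 345 genes. At 6 or more the 223 other genes averaged 36.8%, above the 7 members. The bin from 4 to 6 of the members stood at 83.7%, 87.6%, 83.3% and 83.2% in the 4 tumors.

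Fingers and linkers had nearly the same methylation when averaged per gene. Linkers of 60 genes had 90.8%, 93.2%, 90.5% and 91.1%, and fingers of 70 genes had 90.1%, 91.4%, 89.2% and 88.9%. Other coding bases of 74 genes had 82.5%, 84.7%, 81.1% and 81.2%, and 3′ UTR sites of 32 genes had 86.6%, 87.7%, 83.8% and 80.3%. Averaged over sites, where members with many sites weigh more, linkers had 80.8%, fingers 76.3%, other coding bases 63.2% and 3′ UTRs 83.3%. Without the 6 members under 50%, a choice made on the values themselves, the averages over sites were 89.4%, 87.2%, 87.6% and 86.0%. Over sites, the lower value of other coding bases thus came from these members, an outcome that the choice itself favors. By distance from the nearest transcription start, the average per gene was 54.2% under 1 kb, 75.6% from 1 to 2 kb, 86.8% from 2 to 5 kb, 90.4% from 5 to 20 kb and 89.8% beyond 20 kb. The bins under 1 kb and from 1 to 2 kb hold 5 and 14 genes, and the bin beyond 20 kb holds 8. Averaged over sites the 5 bins had 24.6%, 57.2%, 78.0%, 74.996% and 77.9%. Without the 6 low members the sites averaged 92.2%, 94.4%, 92.1%, 86.1% and 77.9%. Over sites, the lower values close to the start thus came from those members. Leaving out members for their low values raises the bins that held them, and averages over sites weigh members with many sites. The turned order is therefore no measure of distance, which was not tested.

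The promoters of the same genes were nearly free of methylation. Of the 110 members, 99 had a promoter with at least 2 qualified sites, and these averaged 6.63%, 7.79%, 6.08% and 7.27%, with a median gene of 1.60%. Promoters of 76 genes were under 5%, 14 were from 5% to 20% and 9 were at 20% or more. The last exons of these 99 genes lay above their promoters by 79.8, 80.1, 79.6 and 77.7 points, a mean of 79.3 ± 1.09 (SD, n = 4 tumors). The gap had the same direction in 4 of 4 tumors, and the two-sided exact sign-flip permutation test gave p = 0.125, the smallest that 4 tumors allow. In 94 genes the last exon was above the promoter in all 4 tumors, and in 67 by at least 80 points in all 4. Promoters and last exons of 3304 other genes differed by 62.6, 61.3, 60.3 and 56.3 points.

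The 5 genes without this order in all tumors were Zfp648, Zfp771, Zfp42, Zfp503 and Zfp36l2, of which Zfp771, Zfp503 and Zfp36l2 had little methylation at both ends. Zfp42, which encodes the pluripotency marker REX1, was the reverse, with a methylated promoter: 85.3%, 94.4%, 85.6% and 92.4% at 8 sites. Its last exon had 92.1%, 92.2%, 85.9% and 77.6%. The promoter of Zfp648 had 51.4%, 53.7%, 60.8% and 58.7% at 2 sites, and its last exon 46.0%, 75.8%, 58.2% and 78.0% at 10 sites. Among the other methylated promoters, Zfp575 had 46.6%, 61.6%, 49.2% and 75.5% at 7 sites and Zfp27 had 51.2%, 45.2%, 43.9% and 46.2% at 2 sites. Zfp180 had 42.7%, 45.7%, 37.7% and 37.9% at 11 promoter sites. The last exons of Zfp575 and Zfp180 were nonetheless above 80% in every tumor, at 90.8%, 95.5%, 93.2% and 96.9% and at 94.9%, 95.1%, 92.0% and 81.5%.

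Exons and introns upstream of the last exon were less methylated. Earlier exons, outside promoters, had values in 30 members and averaged 74.0%, 73.4%, 72.2% and 68.9%, while the last exons of these genes averaged 88.2%, 88.4%, 85.6% and 82.9%. Introns had values in 47 members and averaged 54.0%, 54.5%, 52.9% and 50.0%, while their last exons averaged 87.4%, 88.4%, 85.5% and 83.7%. In both sets of genes the mean of the last exons was the higher one in all 4 tumors.

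Zfp last exons were more methylated than other last exons. The 3952 other genes averaged 74.5%, 75.9%, 71.8% and 69.3%, and 37.3% of them were at 90% or more, against 70.9% of the members. The members were above them by 12.6, 12.6, 14.5 and 16.1 points, higher in 4 of 4 tumors (two-sided exact sign-flip permutation test, p = 0.125). Other zinc finger families, taken by the prefixes Zscan, Zkscan, Zbtb, Znf, Zic, Klf, Prdm, Gli and Egr, had 51 last exons at 75.1%, 78.7%, 74.9% and 74.7%, above other genes and below the members in all 4 tumors, with 49.0% of them at 90% or more. The 98 other genes with at least 3 C2H2 fingers, a group chosen after values had been seen, had 73.5%, 76.5%, 72.6% and 73.7%. Genes named Zfp were above these by 13.7, 12.0, 13.7 and 11.7 points (exact sign-flip permutation p = 0.125).

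Between the lines, Zfp last exons differed little on average. The parental tumors had 87.9% ± 0.997 (SD, n = 2) and the resistant tumors 85.8% ± 0.658 (SD, n = 2), a difference of −2.03 points. Without 344SQP replicate 2 it was −1.33. The lines did not overlap, and an exact permutation test, two-sided, had p = 0.333, the smallest that 2 tumors against 2 allow. In single genes, 73 of 110 members were lower and 37 higher in the resistant tumors, with a median difference of −0.975 points. Other last exons had 75.2% ± 0.978 and 70.6% ± 1.81, a difference of −4.67 points and a median of −2.73. The line difference was thus smaller in size in Zfp genes than in other genes by 2.64 points (exact permutation p = 0.333), and by 1.43 points among exons with at least 5 sites. Against the other genes with at least 3 fingers the line differences differed by −0.135 points (exact permutation p = 1).

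The promoters of the members had 7.21% ± 0.819 in the parental and 6.67% ± 0.837 in the resistant tumors (SD, n = 2 each). The difference of −0.533 points was within the spread of the replicates (exact permutation p = 0.667), and it turned to 0.0463 without 344SQP replicate 2 and to 0.0593 without 344SQR replicate 1. The gap between last exon and promoter differed between lines by −1.33 points, from 79.98 ± 0.228 to 78.7 ± 1.32 (exact permutation p = 0.333). Without 344SQR replicate 2 this difference was −0.398, and without 344SQR replicate 1 it was −2.27.

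Gene by gene, 64 of 110 members (58.2%) differed between lines at a false discovery rate (FDR) under 0.05, beside 62.5% of all last exons. This test, a likelihood ratio per site combined over the exon, counts every read as an independent draw and takes no account of how tumors of a line vary. Lower in resistant tumors were 51 members, beside 51.8% of all last exons, and higher were 13, beside 10.7%. The count of 13 was 5 without 344SQP replicate 1 and 8 without 344SQR replicate 2. The lines did not overlap in 53 members (48.2%), beside 50.2% of all last exons. Both criteria and a difference of 10 points or more were met by 11 members (10%), beside 18.5%. These shares are near those of all last exons, apart from the share at 10 points or more, whose difference was not tested. Of the 64 called members, 33 differed by under 5 points, 19 by 5 to 10 and 12 by 10 or more.

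With the spread between tumors in the test and no replicate term, edgeR and limma called none of the members. By edgeR's quasi-likelihood test, 0 of 4062 last exons (0.0%) passed an adjusted p of 0.05. At an unadjusted p under 0.05 edgeR listed 16 of 110 members, 14 of them lower in resistant tumors, beside 16.2% of all last exons. limma also called 0, with 15 members (13.6%) at an unadjusted p under 0.05, beside 16.1% of all last exons. In promoters, the likelihood ratio test called 33 of 99 members (33.3%), beside 38.2% of 19240 promoters: 25 lower, beside 29.2%, and 8 higher, beside 8.94%. Without 344SQP replicate 2 the count of 33 was 21, with 14 lower. The 25 lower were 16 without 344SQP replicate 1, and the 8 higher were 1 without 344SQR replicate 2. The lines did not overlap in 39 member promoters, beside 39.9%, and 2 met all 3 criteria, beside 7.64%. In promoters edgeR called 8 of 19235 (0.0416%) and 0 of the members, with 4 members at an unadjusted p under 0.05, beside 8.61% of promoters, and limma called 0, also with 4, beside 10.1% of promoters.

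In 41 of the 51 last exons called lower in resistant tumors (80.4%), 344SQR replicate 2 was the lowest of the 4 tumors, beside 77.9% of all 2105 last exons called lower. A lower call itself favors a resistant tumor as the lowest: over all 110 members it was that tumor in 56 (50.9%), and over all last exons in 55.4%. Of the 12 called members that differed by 10 points or more, 10 were lower and 2 were higher. The lower one with the largest difference, named after its values were seen, was Zfp773, at 81.4%, 78.9%, 71.6% and 46.6% over 5 sites, a difference of −21.1 points. Without 344SQR replicate 2 it was −8.58, and without 344SQR replicate 1 it was −33.5.

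Among the lower genes with the smallest FDR and no overlap between lines was Zfp467, a transcription factor gene with 12 fingers. Its last exon had 95.4%, 94.9%, 90.4% and 82.5% at 78 sites, with 95.1% ± 0.346 in parental and 86.5% ± 5.59 in resistant tumors (SD, n = 2; difference −8.64, FDR 1.06e-145). Both resistant tumors were below both parental ones, and replicate 2 was farther below. The difference was uneven along the exon: the 3′ part of the sites differed by −11.9 points, the middle part by −3.81 and the 5′ part by −10.2. Zfp42 had the values given above, with a difference of −10.5 points at 18 sites (FDR 3.39e-61), and its promoter, not called, differed by −0.838 points. That promoter value turned to 3.72 without 344SQP replicate 2 and to 2.55 without 344SQR replicate 1. The 5′ part of its sites had 88.0%, 89.2%, 81.9% and 69.4%, and the 3′ part had 94.2%, 94.4%, 89.1% and 84.3%.

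Zfp536, a repressor of neuronal differentiation, had 79.9%, 79.1%, 73.8% and 59.6% at 11 sites of chr7:37479104-37480849 (difference −12.8, FDR 2.48e-38). Its 5′-most sites had 85.2%, 81.5%, 75.4% and 41.5%, so that most of the gap lay there and in 344SQR replicate 2. Its promoter had 30.7%, 48.7%, 26.1% and 43.2% at 84 sites and was called lower in resistant tumors too (difference −5.03), with overlapping lines. That difference turned to 3.97 without 344SQP replicate 2 and to 3.52 without 344SQR replicate 1. Zfp335, whose human counterpart is mutated in a form of microcephaly, had 87.8%, 94.5%, 84.0% and 72.2% at 9 sites of chr2:164891882-164892291 (difference −13.0, FDR 6.93e-31). The sites of Zfp335 lie in Pcif1 as well, so the value belongs to both genes. Zfp385a had 72.5%, 68.2%, 66.5% and 55.1% (difference −9.58, FDR 5.28e-27), and this value depended on the sites taken. At a minimum of 50 reads the difference was −15.9 over 14 sites, and in coding bases only it was −21.5 over 2 sites with a mean of 26.5%. The promoter of Zfp385a had 4.07%, 4.27%, 3.93% and 6.83% and was called higher by 1.21 points, which turned to −0.240 without 344SQR replicate 2.

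Zfp11, with 21 fingers, differed between lines at the 5′ end of its measured sites and hardly at their 3′ end. It had 98.4%, 96.3%, 92.5% and 87.7% at 24 sites (difference −7.25, FDR 2.16e-23). The 8 sites on the 5′ side, at chr5:129657649-129657736, had 98.95%, 92.7%, 81.9% and 70.1%. The 8 sites on the 3′ side, at chr5:129656811-129657316, had 97.5%, 98.8%, 98.9% and 98.98%, alike in both lines. The unadjusted p of edgeR was 0.00406 and the adjusted p 0.170.

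Much of these differences rests on 1 tumor, 344SQR replicate 2. Its table also lists the most sites of any coverage, 6377285 beside 2770733 and 2695851 in the parental tumors and 3772295 in 344SQR replicate 1. Sites with at least 20 reads numbered 1177303 in it, beside 1118148, 1161085 and 1158585. The part of this in the differences was not tested. Without 344SQR replicate 2 the difference was −4.69 points in Zfp467, −6.31 in Zfp42 and −5.72 in Zfp536. It was −7.09 in Zfp335, −3.89 in Zfp385a and −4.88 in Zfp11. Zfp180 differed by −8.24 points with all 4 tumors (FDR 8.09e-17) and by −3.0001 without that tumor. All 7 stayed lower in resistant tumors, which follows from the values. In each of them both resistant tumors lay below both parental ones, so leaving out 1 tumor could not turn the direction. Without 344SQR replicate 1 the difference grew to −19.9 in Zfp536, −15.3 in Zfp385a and −13.5 in Zfp180.

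The largest difference upward was in Zfp580, a 3-finger gene on chromosome 7 with a CpG-rich last exon (chr7:5052805-5053723). Its 7 qualified sites had 6.47%, 13.9%, 27.5% and 39.7%, each covered by 64 to 112 reads. The parental tumors had 10.2% ± 5.23 and the resistant tumors 33.6% ± 8.62 (SD, n = 2; difference 23.4, FDR 5.81e-37), with both resistant tumors above both parental ones. The adjusted p of edgeR was 0.170 (unadjusted 0.00426). Its promoter, at 5.60%, 7.99%, 6.86% and 12.2% over 22 sites, was called higher in resistant tumors by 2.73 points, with overlapping lines, and by 0.0691 without 344SQR replicate 2. The other gene higher by 10 points or more, Zfp637, named after its values were seen, had 81.3%, 70.5%, 93.6% and 97.4% at 3 sites. The remaining genes higher by rule differed little: Zfpm1 by 1.46 points (93.1%, 93.4%, 95.3% and 94.1%), Zfp169 by 1.73 (95.6%, 97.0%, 98.0% and 98.0%) and Zfp398 by 1.16 (97.1%, 97.8%, 98.3% and 98.9%). Without 344SQR replicate 1 the difference in Zfpm1 was 0.828, and without 344SQP replicate 1 that in Zfp169 was 1.05 and no longer called. The call of Zfp398 was lost at 0.791 without 344SQP replicate 1 and at 0.889 without 344SQR replicate 2.

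The stretches with the most qualified CpGs of Zfp467 and Zfp580 are shown because they carry a lower and a higher value in resistant tumors. They are printed from GRCm38 (mm10), 5′ to 3′ on the strand of the gene, with qualified CpGs in capitals. The Zfp467 stretch lies at chr6:48438317-48438526 on the minus strand, where all 23 CpGs qualified and 36 sites had 95.6%, 95.0%, 91.8% and 84.7%. The Zfp580 stretch lies at chr7:5052946-5053155 on the plus strand, where 7 of 24 CpGs qualified, so its value describes a short part of the exon.
Zfp467: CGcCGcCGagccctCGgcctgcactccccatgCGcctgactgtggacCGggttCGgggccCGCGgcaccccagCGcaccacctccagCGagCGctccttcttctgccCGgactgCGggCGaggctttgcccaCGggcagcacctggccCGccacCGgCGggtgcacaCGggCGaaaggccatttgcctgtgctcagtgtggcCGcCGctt
Zfp580: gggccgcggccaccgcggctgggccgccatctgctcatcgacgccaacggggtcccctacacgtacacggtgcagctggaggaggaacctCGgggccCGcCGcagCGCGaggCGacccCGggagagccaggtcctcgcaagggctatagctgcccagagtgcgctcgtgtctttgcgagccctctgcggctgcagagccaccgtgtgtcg

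In some members the replicates differed more than the lines. Zfp316, with a KRAB box and 14 fingers, had 53.8%, 81.3%, 55.4% and 86.7% at 271 sites of chr5:143249697-143255565. Zfp697, with 11 fingers, had 47.9%, 78.6%, 59.6% and 84.4% at 127 sites of chr3:98427162-98431951. Replicate 2 was higher than replicate 1 in both lines of both genes, and the lines overlapped. The likelihood ratio test called both higher in resistant tumors, by 3.45 points (FDR 1.35e-43) and by 8.71 points (FDR 1.30e-154). The direction turned when a tumor was left out: to −10.3 and −6.64 without 344SQP replicate 1, and to −12.2 and −3.68 without 344SQR replicate 2. Leaving out 1 tumor takes a high or a low replicate from 1 line alone, so with such a gap between replicates the turn follows from the values. 344SQR replicate 1 was above 344SQP replicate 1, and 344SQR replicate 2 above 344SQP replicate 2, in both genes. By edgeR without a replicate block the unadjusted p was 0.725 for Zfp316 and 0.427 for Zfp697. With a replicate block edgeR called Zfp697 and not Zfp316, but no label says that tumors of the same number form a pair.

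The gap between replicates ran along the whole of both exons. In Zfp316 the 5′ part of the sites had 67.3%, 87.6%, 66.1% and 91.5%, and the 3′ part had 46.8%, 79.2%, 49.2% and 85.0%. In Zfp697 these were 44.4%, 76.8%, 52.3% and 78.0%, and 51.2%, 79.2%, 62.8% and 90.2%. Their promoters stayed low in every tumor, at 1.66%, 1.57%, 1.59% and 1.69% in Zfp316 and 2.19%, 3.72%, 1.78% and 2.32% in Zfp697. Zfp648 had the same order, and its call of 7.16 points higher turned to −7.73 without 344SQP replicate 1 and to −2.72 without 344SQR replicate 2. Zfp57, a KRAB protein that keeps methylation at imprinted loci, had 56.8%, 87.2%, 62.8% and 86.5% at 4 sites and was not called with all 4 tumors (difference 2.66). With a tumor left out it was called, at −12.5 without 344SQP replicate 1, 17.9 without 344SQP replicate 2, 14.5 without 344SQR replicate 1 and −9.19 without 344SQR replicate 2.

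Counted after these values were seen, 5 members (Zfp648, Zfp697, Zfp316, Zfp853 and Zfp57; 4.55%) had replicate 2 at least 10 points above replicate 1 in both lines, and 0 had the reverse. Over all last exons 302 of 4062 (7.43%) had the first pattern. CpG calls on chromosome Y, which the female hosts lack, also differed by replicate, at 406, 254, 555 and 178 per 1000000 CpG calls. Replicates 1 of both lines had more of them than replicates 2. Their part in the methylation of these genes was not tested.

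Stretches of Zfp316 and Zfp697 are shown because they carry the gap between replicates over many neighbouring CpGs. They are from GRCm38 (mm10), 5′ to 3′ on the strand of the gene, with qualified CpGs in capitals. That of Zfp316 lies at chr5:143253752-143253961 on the minus strand, where all 45 CpGs qualified and 70 sites had 44.0%, 76.8%, 48.8% and 82.8%. That of Zfp697 lies at chr3:98427962-98428171 on the plus strand, where 31 of 37 CpGs qualified and 34 sites had 47.0%, 81.1%, 63.3% and 83.4%.
Zfp316: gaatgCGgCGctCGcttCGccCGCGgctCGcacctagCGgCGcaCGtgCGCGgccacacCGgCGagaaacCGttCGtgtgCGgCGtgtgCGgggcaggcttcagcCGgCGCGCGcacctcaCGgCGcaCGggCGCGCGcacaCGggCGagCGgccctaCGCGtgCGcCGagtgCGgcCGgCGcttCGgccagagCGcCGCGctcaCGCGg
Zfp697: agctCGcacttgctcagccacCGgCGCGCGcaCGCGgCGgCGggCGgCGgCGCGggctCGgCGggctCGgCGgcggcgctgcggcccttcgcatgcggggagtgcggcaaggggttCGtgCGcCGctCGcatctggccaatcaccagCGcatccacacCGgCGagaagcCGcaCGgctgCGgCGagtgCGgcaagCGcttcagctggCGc

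The remaining named genes differed by little between lines. In the least methylated exons the called differences were small, at −0.301 points in Zfp771, −1.25 in Zfp503 and −0.767 in Zfp703, and Zfp36l2 was not called, except with pooled reads (−0.215). The call of Zfp771 was lost when a parental tumor was left out, at −0.490 without 344SQP replicate 1 and −0.112 without 344SQP replicate 2. Without 344SQP replicate 1 the difference was 0.474 in Zfp503 and 0.592 in Zfp703, and without 344SQR replicate 2 it was 0.742 in Zfp703 and −0.206, not called, in Zfp503. Among the most methylated exons, Zfp7 and Zfp69 were called lower, with differences of −0.907 and −0.775 points, and Zfp619 was not called, except without 344SQR replicate 1 (1.38). At a minimum of 10 reads the difference in Zfp7 was −0.282. Without 344SQR replicate 2 that in Zfp69 was −0.0730 and not called. Zfp575 was called higher by 1.88 points, and this turned to −0.452 without 344SQP replicate 1 and was 0.0248, not called, without 344SQR replicate 2. Zfp27 was not called, and at a minimum of 10 reads its mean was 83.8% over 7 sites.

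Of the promoters of members, Zfp641 and Zfp488 had the largest differences downward, and are named after their values were seen. Zfp641 had 19.0%, 29.0%, 10.2% and 13.0% at 36 promoter sites, and both resistant tumors were below both parental ones. Without 344SQP replicate 2 its difference of −12.4 was −7.44. Zfp488 had 16.8%, 15.2%, 4.54% and 4.76% at 3 promoter sites, with the same order. The promoter of Zfp518b had the largest difference upward, at 17.4%, 43.6%, 30.3% and 61.6% over 83 sites, but the lines overlapped. In both lines of Zfp518b replicate 2 was above replicate 1, and its difference of 15.4 turned to −0.169 without 344SQR replicate 2. The promoter of Zfp575, called higher by 8.21 points, turned to −4.96 without that tumor.

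Where measured, genes through which KRAB proteins act had little promoter methylation in both lines, apart from the X-linked Atrx at 25.2%, 14.7%, 29.2% and 10.6%. Of 20 corepressor and DNA methylation genes, Trim28 and Cbx5 had no promoter value. The other 18 had means of 3.10%, 2.69%, 3.21% and 2.33%. Of these, Dnmt3b and Pphln1 were called lower and 0 higher by the likelihood ratio test, beside 29.2% and 8.94% of all promoters, with a median difference of −0.117 points beside −0.218 over all promoters. The promoter of Dnmt3b, a de novo DNA methyltransferase, had 2.08%, 2.30%, 1.09% and 0.912%. The promoter of Setdb1 had 0.413%, 0.248%, 0.803% and 0.568%, and that of Dnmt1 had 1.52%, 1.32%, 1.72% and 1.42%. Last exons of 2 of these genes, Dnmt3a and Uhrf1, had values, with means of 95.4%, 96.2%, 94.9% and 94.3%. Neither was called, beside 62.5% of all last exons, and their median difference was −1.21 points beside −2.66 over all last exons.

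Promoters of leukocyte genes were read as a sign of the cell mix, and values are given for 2 of them, Cd3e and Coro1a. Ptprc, the common leukocyte marker, had no value. Cd3e, a subunit of the T cell receptor complex, had 81.1%, 75.8%, 81.5% and 46.6% at 2 sites. It was called lower in resistant tumors (difference −14.4), with overlapping lines, and the difference turned to 3.08 without 344SQR replicate 2. Its lowest value was in 344SQR replicate 2, which was also the lowest tumor in most lower calls of Zfp last exons. Coro1a, an actin-binding protein of leukocytes, had 18.4%, 25.2%, 18.1% and 28.6% at 33 sites and was not called. The part of the cell mix in the differences between tumors was not tested.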

How the data were processed

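DNA methylation was measured by RRBS in 4 tumors, and the groups came from the sample labels. The authors trimmed the reads (Trim Galore 0.4.1, cutadapt 1.9.1), mapped them to mm10 with Bismark and Bowtie 1.1.2, and deposited a table per tumor. Per the file headers and the authors, coverage is the count of mapped reads over a CpG cytosine, strands apart and not normalized. The authors deposited methylation as the percent of those mapped reads that kept a C, rounded to 1 decimal. Methylated reads were recomputed as coverage times percent, rounded. A minimum of 20 reads in every tumor left 1081201 sites, all of which lie at a CG of the GRCm38 sequence.

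Last exons and promoters came from the GENCODE annotation of GRCm38 (basic set). Proteins translated from it were searched for C2H2 fingers (cysteines 2 to 4 residues apart, 12 residues, histidines 3 to 5 apart), a KRAB box and CCCH fingers. Linkers were gaps of at most 8 residues between fingers. Such patterns miss degenerate copies. Genes counted as clustered lay within 250 kb of another Zfp gene.

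Per site, a logistic model with and without the line was compared by likelihood ratio (p not below 2.2e-16). Sites were combined by Stouffer's signed z score, two-sided, and adjusted by Benjamini-Hochberg over all 4062 last exons or 19240 promoters. Means over genes were compared by two-sided exact permutation tests. edgeR 4.0.16 fitted methylated and unmethylated counts, and limma 3.58.1 the log2 ratio after 1 read was added to each. Python 3.11.15, numpy 2.4.6, scipy 1.17.1, pandas 2.3.3, pysam 0.24.0 and R 4.3.3 were used. The tests were also run on simulated data, where tumors that varied within a line led the likelihood ratio test to call many unchanged regions, and edgeR and limma few. PCR copies were not removed, so precision covers counting of reads alone.

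Genes were named by rule: the 6 with the most sites; of those with at least 5 sites, the 5 lowest and 3 highest; of those also called without overlap, the 6 lower and up to 6 higher with the smallest FDR, of which 4 were found; the 5 with the most methylated promoters; and Zfp36l2, Zfpm1, Zfp57 and Zfp42 by name. Genes of this last list without a qualified last exon are not given. The members and lists were chosen with earlier results of these data known.

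Alternatives were coverage minimums of 10 and 50, merged strands, a coverage cap, pooled reads, at least 5 sites, protein-coding transcripts, coding bases, autosomes, each tumor left out, unsigned z scores, an FDR of 0.01, edgeR, limma and replicate blocks. Members with at least 3 C2H2 fingers were an alternative chosen after seeing the data.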

Additional observations from a re-analysis of the deposited data

Results flagged for a closer look

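Reads of chromosome Y were present in all 4 tumors although the hosts were female, and no comparison of last exons uses them. Per 1000000 CpG calls, chromosome Y held 406 and 254 in 344SQP replicates 1 and 2, and 555 and 178 in those of 344SQR. No control sample was sequenced for comparison.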

How the results depend on the processing

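Of 150 recomputed values of the summary results, 134 stayed the same: differences kept their direction, and counts stayed within a factor of 1.5 of the main count. Of the others, 2 differences reversed and 14 counts moved further. The line difference of Zfp last exons ran from −2.74 to −1.33 over 15 settings, and that of Zfp promoters from −1.12 to 0.0593 when a tumor was left out. Member promoters called ran from 21 to 30 when a tumor was left out. With coding bases only, 1664 of 2742 last exons were called, with fewer regions tested. The count of called last exons, promoters, member last exons and member promoters was 0, 8, 0 and 0 by edgeR, and 0, 0, 0 and 0 by limma. With a replicate block in edgeR it was 133, 2405, 5 and 7, the 5 being Zfp697, Zfp11, Zfp467, Zfp580 and Zfp42.

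When a tumor was left out, differences turned in named genes, with ranges of −12.2 to 19.1 in Zfp316, −6.64 to 24.1 in Zfp697, −2.98 to 0.474 in Zfp503, −2.27 to 0.742 in Zfp703, −7.73 to 22.1 in Zfp648, −0.452 to 4.22 in Zfp575 and, uncalled with all tumors, −12.5 to 17.9 in Zfp57 and −0.361 to 1.38 in Zfp619. The cause was not tested. Calls of the named genes were lost in 72 of 380 recomputed values, among them 20 of 20 by edgeR and by limma.

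No label says that tumors of the same number form a pair. Deviations of tumors with the same number had r = 0.667 over all last exons. As blocks, the line difference of Zfp last exons was −0.862 in replicates 1 and −3.20 in replicates 2 (exact permutation p = 0.5). With 2 tumors per line and 20 reads per site at the least, small differences in single genes were not detectable beyond the spread of the tumors.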
